A study of Danio rerio with 37 samples.

Results

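In 5 of 37 RNA-seq libraries from whole zebrafish embryos, malat1 stood above 5000 counts per 1000000 gene-assigned reads (CPM). These malat1-rich libraries are replicates 1 and 2 of the DjCas13d knockdown at 10 pg of GFP, replicates 1 and 3 of the RfxCas13d control at 10 pg, and replicate 1 of the RfxCas13d control at 50 pg. They are set against the other 4 libraries of the same 3 groups, which are replicate 3 of the DjCas13d knockdown, replicate 2 of the 10 pg RfxCas13d control, and replicates 2 and 3 of the 50 pg RfxCas13d control. The remaining 28 libraries belong to the other 9 groups. All embryos were collected at 6 hours after fertilization, when gastrulation begins. RfxCas13d, DjCas13d and Cas7-11 are CRISPR effectors that cut RNA matched by a guide. The labels give each group an effector, a control or knockdown arm and a dose of 10 pg or 50 pg of GFP. The design text of the series names primary miR-430 as the RNA knocked down, while GFP itself was lower in every library of each knockdown group than in any control library of the same effector and dose. At 10 pg it was at 4.71 to 31.2 TPM (transcripts per 1000000) in the DjCas13d knockdown against 3180 to 3665 TPM in its control, and at 4.26 and 7.92 TPM in the RfxCas13d knockdown against 676 to 4464 TPM in its control. No strain or guide is given, nor what the control embryos received or whether libraries come from separate clutches, so p-values measure only how these libraries vary, and part of that may be technical.

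Malat1 is a long noncoding RNA that stays in the nucleus, where in mammals it gathers in the speckles that store splicing factors. Mitochondrial mRNAs are transcribed inside mitochondria from the organelle's own genome, and encode subunits of the respiratory chain and of the ATP synthase. An early zebrafish embryo holds both maternal mRNAs, loaded into the egg, and zygotic mRNAs made after its own genome is switched on.

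The members were chosen by a measured value, malat1, so the differences between malat1-rich and other libraries are given as a description without a test. Malat1 was at 6162 and 6356 CPM in the malat1-rich 10 pg RfxCas13d controls, against 976 CPM in replicate 2. At 50 pg it was at 5830 CPM in the malat1-rich RfxCas13d control, against 1653 and 1054 CPM in replicates 2 and 3. In the DjCas13d knockdown it was at 5286 and 5614 CPM in the malat1-rich libraries, against 1105 CPM in replicate 3. The lowest library inside the limit of 5000 CPM was at 5286 CPM, and the highest outside it, replicate 1 of the 50 pg DjCas13d control, was at 2272 CPM. The 28 libraries of the other groups ran from 416 to 2272 CPM with a median of 762. Replicate 1 was malat1-rich in each of the 3 groups, and the other malat1-rich libraries carried the number 2 or 3.

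**Figure D1:**
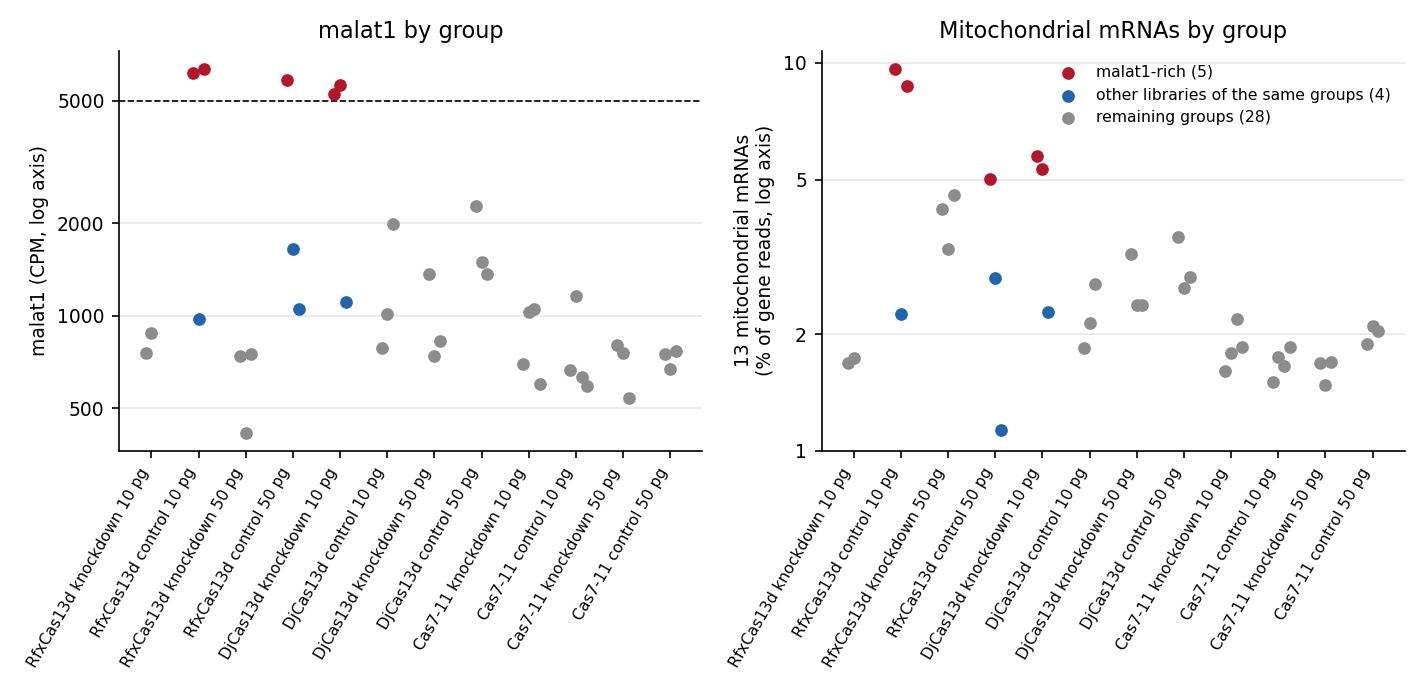
Each point is 1 library, placed by group, with malat1 in CPM at left and the 13 mitochondrial mRNAs as a percentage of gene reads at right, both on log axes; the dashed line marks 5000 CPM. The 5 malat1-rich libraries stand at 5286 to 6356 CPM and at 5.03% to 9.65%, above the other 4 libraries of their groups on both measures.

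The 9 libraries had between 5627315 and 8034012 gene-assigned reads. The 2 malat1-rich libraries of the 10 pg RfxCas13d control differed from each other by a chi-square per degree of freedom of 4.95 over genes, and those of the DjCas13d knockdown by 6.3, where sampling alone gives about 1. Pairs of a malat1-rich and an other library of the same group reached 20.2 to 67.1, and replicates 2 and 3 of the 50 pg RfxCas13d control, both among the other libraries, 39.8. None of these 9 pairs within groups differed by as little as sampling noise. Reads that the counting assigned to no gene feature (no-feature reads) were more frequent in the malat1-rich libraries. They were 13.6% to 15.2% of all reads, against 10.5% to 12% in the other libraries. Without a stated counter or strand setting, such reads may lie outside genes, in introns or on the opposite strand. Unmapped and multimapping reads were also higher within each group. Fewer genes had at least 1 read, 18500 to 19390 against 19220 to 20210. Whole-embryo genes such as sox32 and krt4 had reads on both sides, and the summed level of the 14 genes chosen to mark an embryo of this age was 9163 to 11110 CPM in malat1-rich and 8703 to 10450 CPM in other libraries. Defining genes of differentiated tissues were close to 0 on both sides: 9 erythrocyte genes summed to 2.1 to 3.03 CPM in malat1-rich and 1.42 to 2.75 CPM in other libraries, 10 muscle genes to 2.93 to 5.59 and 2.67 to 6.5 CPM, and 4 lens genes to 0 to 0.622 and 0 to 0.434 CPM. The 6 leukocyte genes summed to 135 to 236 CPM in malat1-rich and 186 to 432 CPM in other libraries, with lyz and mpeg1.1 at 0 reads on both sides. Most of this sum was lcp1, an actin-bundling protein, at a mean of 193.9 CPM in malat1-rich and 337.6 CPM in other libraries (TMM-scaled). In bulk RNA, fewer cells of a type and less RNA per cell cannot be told apart.

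All 13 mitochondrial mRNAs were higher in the malat1-rich libraries. Together they took 9.65% and 8.7% of gene reads in the malat1-rich 10 pg RfxCas13d controls, against 2.25% in replicate 2. At 50 pg they took 5.03% in the malat1-rich RfxCas13d control, against 2.79% and 1.13% in the other replicates, and in the DjCas13d knockdown 5.75% and 5.34%, against 2.28%. With the effector as a block, the malat1-rich libraries were higher by 4.98 percentage points of gene reads, with a residual SD of 1.65 between libraries. With effector and dose as block the difference was 4.42 points. The ratio of malat1-rich to other means was 4.08 in the 10 pg RfxCas13d control, 2.57 at 50 pg and 2.43 in the DjCas13d knockdown.

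From here, values of single genes are CPM scaled by the trimmed mean of M-values (TMM). Those of malat1-rich libraries run from the 10 pg RfxCas13d control (replicates 1 and 3) over the 50 pg RfxCas13d control (replicate 1) to the DjCas13d knockdown (replicates 1 and 2). Those of the other libraries run from the 10 pg RfxCas13d control (replicate 2) over the 50 pg RfxCas13d control (replicates 2 and 3) to the DjCas13d knockdown (replicate 3). Differences are log2 values, malat1-rich minus other, from 1 edgeR fit over 13796 genes with effector as block, given with their SE. Dose is not a term of this fit. Within the RfxCas13d control, the malat1-rich side has 2 libraries at 10 pg and 1 at 50 pg, and the other side has 1 and 2.

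Mt-co1, the catalytic core of cytochrome c oxidase and the most abundant of these mRNAs, was at 40530, 36650, 26500, 23520 and 20120 CPM in malat1-rich libraries, against 8759, 14230, 5712 and 8567 CPM in the other libraries, a difference of 1.69 ± 0.27. Mt-cyb, the cytochrome b of complex III, was at 14660, 12290, 7314, 7122 and 7112 CPM against 2860, 3693, 823 and 3020 CPM in the other libraries (1.90 ± 0.39). Every malat1-rich library lay above every other library for both mRNAs. The largest difference was that of mt-atp8, a small subunit of the ATP synthase, with 135.9, 120.4, 36.9, 91.1 and 121.7 CPM in malat1-rich libraries, against 30.1, 19.2, 10.0 and 21.8 CPM in the others (2.30 ± 0.39). The smallest was that of mt-nd6, a complex I subunit and the one mRNA of the set that is read from the light strand, with 192.9, 216.4, 71.1, 124.7 and 124.4 CPM in malat1-rich libraries, against 39.4, 57.5, 61.2 and 38.9 CPM in the others (1.63 ± 0.28). The median over the 13 was 1.90, against 0.01 over all genes fitted. By group it was 2.23 in the 10 pg RfxCas13d control, 1.60 at 50 pg and 1.67 in the DjCas13d knockdown.

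**Figure D2:**
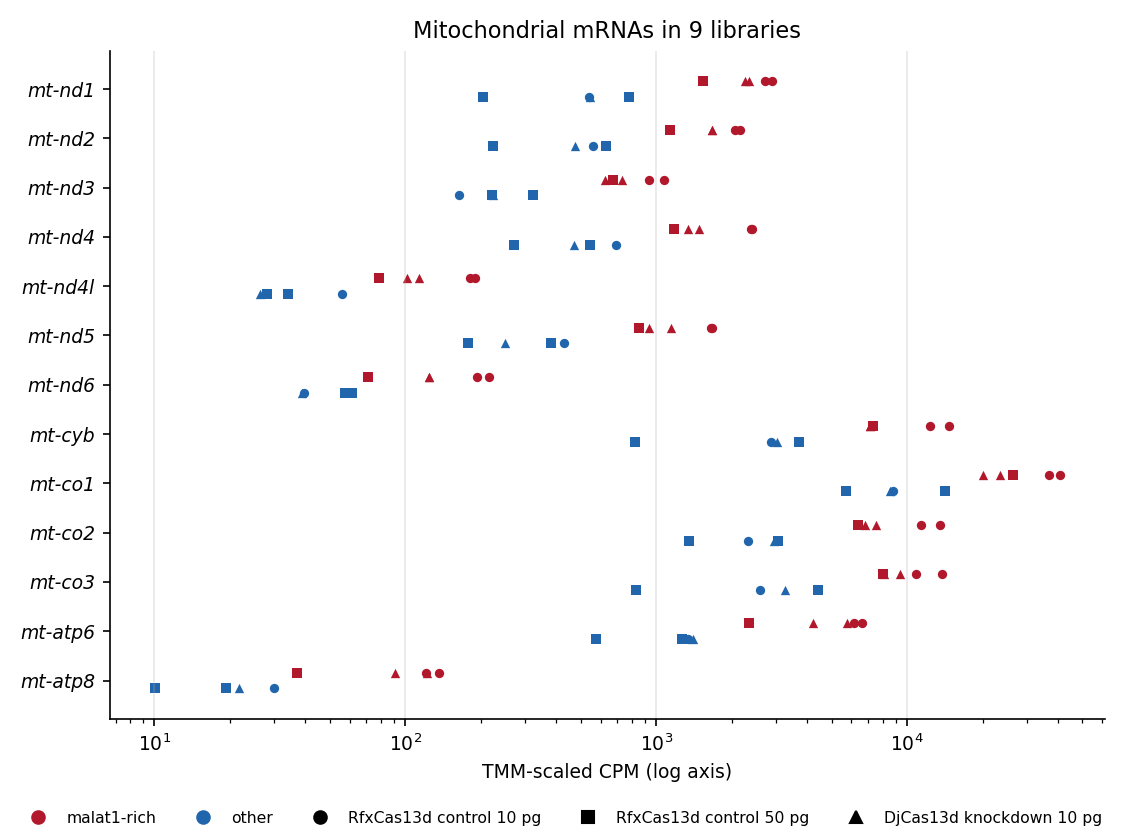
TMM-scaled CPM (log axis) of the 13 mitochondrial mRNAs in 9 libraries, 1 point per library, malat1-rich in red above the other libraries in blue, with marker shape by group. Within each group the malat1-rich points lie to the right of the others for every mRNA, from mt-nd6 with a log2 difference of 1.63 to mt-atp8 with 2.30.

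Nuclear genes for mitochondria did not share this difference. Of 82 nuclear genes of oxidative phosphorylation that could be fitted, 30 lay above 0 and the median was -0.11, and of 76 mitochondrial ribosomal proteins 44 lay above 0 with a median of 0.05. By group the oxidative phosphorylation median was 0.009 in the 10 pg RfxCas13d control, 0.09 at 50 pg and 0.05 in the DjCas13d knockdown. The negative sign of the fit over all 9 libraries was thus not that of any group. That fit leaves out dose, which is spread unevenly over the sides within RfxCas13d, and the part of dose in this sign was not tested. Factors for mitochondrial transcription and RNA processing had a median of -0.09 over 24 genes. None of these genes differed 2-fold or more without overlap, where 1.92% of all genes were counted higher and 5.34% lower. The 2 with the largest differences among the better expressed oxidative phosphorylation genes were ndufb10 (0.80 ± 0.25) and ndufa12 (-0.65 ± 0.28), both accessory subunits of complex I.

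Across all genes, 265 of 13796 (1.92%) were at least 2-fold higher in the malat1-rich libraries with no overlap within either effector, and 737 (5.34%) were at least 2-fold lower in the same sense. Nothing is read from these shares, since the same libraries chose the split. Without the limit of 2-fold, 1041 genes (7.55%) were higher and 1364 (9.89%) lower with no overlap. The genes nearest the limit were pip4k2aa, just short of it at 0.999, and polr1f, just past it at 1.01, and among lower genes scaf8 at -0.997 and rnf146 at -1.01. By limma on log2(TPM + 1), where the median of all genes moved to -0.24, 82 genes were higher and 810 lower. Without replicate 2 of the 50 pg RfxCas13d control 632 genes were higher and 1327 lower, and without replicate 1 of that group 402 were higher. A library left out also drops from the no-overlap condition, which then has fewer libraries to separate. The differences of single groups correlated across the 13796 genes with r = 0.545 between the 10 and 50 pg RfxCas13d controls, 0.416 between the 10 pg RfxCas13d control and the DjCas13d knockdown, and 0.584 between the 50 pg RfxCas13d control and the DjCas13d knockdown, as a description across genes, which are not replicates.

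Genes counted in either direction had lower levels than the rest, with a median of the mean log2 CPM of 2.43 for lower genes and 2.4 for higher genes, against 3.77 for genes not counted. Lower genes also had shorter models. Their median effective length, taken from reads over TPM and relative to the genes as a whole, was 0.785, against 0.896 for the higher and 0.968 for the genes not counted. In the lowest of 5 bins of genes by mean level, 7.97% were counted lower and 2.9% higher. In the highest bin the shares were 1.01% lower and 1.52% higher. A symbol in capitals, as the annotation gives to genes named after their human counterpart, was carried by 22.7% of lower genes, 13.2% of higher genes and 10.6% of genes not counted.

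Leaving aside malat1 and the mitochondrial mRNAs, the largest rises were those of ANGPTL5, RIC3 and ONECUT2, and that of ANGPTL5 was above the 2.43 ± 0.22 of malat1. ANGPTL5, an angiopoietin-like secreted protein, was at 10.9, 10.3, 12.5, 12.2 and 16.6 CPM in malat1-rich libraries, against 1.03, 6.06, 0.494 and 1.21 CPM in the others (2.48 ± 0.57, or 3.72 without replicate 2 of the 50 pg RfxCas13d control). ONECUT2, a transcription factor with a cut domain and a homeodomain, was at 14.7, 23.8, 24.0, 20.1 and 20.2 CPM in malat1-rich libraries, against 4.25, 8.16, 2.14 and 5.79 CPM in the others (1.99 ± 0.34). Its relative onecut1 was at 36.8, 50.0, 60.6, 54.3 and 57.5 CPM against 12.6, 35.0, 6.25 and 10.8 CPM in the other libraries (1.70 ± 0.42). The malat1-rich libraries lay above all others for these 3 genes. RIC3, a chaperone of acetylcholine receptors, did so only within each effector, with a difference of 2.29 ± 0.64. It was 3.18 in the 10 pg RfxCas13d control and 0.54 and 0.66 in the other groups, and was 1.47 without replicate 3 of the 10 pg RfxCas13d control and 1.14 by limma on log2(TPM + 1). Fam133b was the most abundant gene of this set, at 346.8, 341.5, 341.2, 258.5 and 320.5 CPM in malat1-rich libraries, against 58.1, 170.6, 67.7 and 101.1 CPM in the others (1.71 ± 0.28). Onecut1 and fam133b, like PHIP (1.86 ± 0.38), pla1a (1.85 ± 0.41), map9 (1.83 ± 0.35), cpn1 (1.75 ± 0.47) and ap3d1 (1.72 ± 0.26), were named after their values were seen, by continuing the ranking without malat1 and the mitochondrial mRNAs.

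A pair of gene identifiers with no name in the files or tables used here was high in reads. ENSDARG00000080337 was at 22930, 27160, 15850, 20740 and 25950 CPM in malat1-rich libraries, against 11270, 7352, 4670 and 5363 CPM in the others (1.69 ± 0.29). ENSDARG00000082753 was at 1056, 1087, 936, 661 and 856 CPM against 226, 456, 226 and 230 CPM in the other libraries (1.75 ± 0.22). Both were picked after their values were seen, and every malat1-rich library lay above every other library for both. Together they took 1.51% to 2.81% of gene reads in malat1-rich libraries and 0.529% to 1.27% in the other 4. In the 28 libraries outside the split their share differed by effector, at 2.48% to 5.2% in Cas7-11, 0.464% to 1.28% in DjCas13d and 0.470% to 2.78% in RfxCas13d libraries. The Cas7-11 libraries also had 17432069 to 23991611 gene reads, against 3944559 to 7337941 in the RfxCas13d and DjCas13d libraries of the 28. Effector and read depth cannot be told apart in this or in any other comparison of Cas7-11 libraries with the rest.

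**Figure D3:**
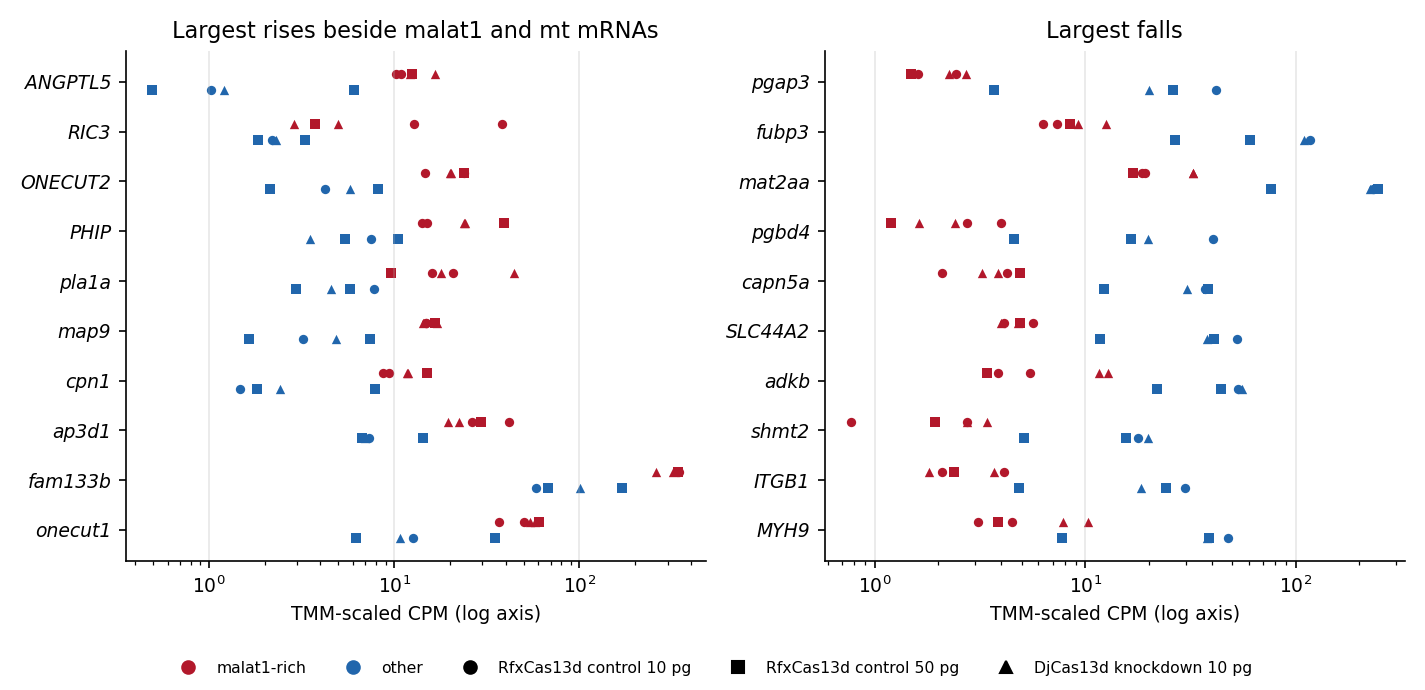
TMM-scaled CPM (log axis) in 9 libraries of the 10 largest rises with malat1 and the mitochondrial mRNAs left out (left) and of the 10 largest falls (right), malat1-rich in red above the other libraries in blue, with marker shape by group. Among the falls, replicate 2 of the 50 pg RfxCas13d control is the blue square nearest the malat1-rich libraries, as for fubp3 at 26.7 CPM.

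The largest falls were steeper than the largest rises. Pgap3, which remodels the lipid anchor of membrane proteins, was at 2.45, 1.61, 1.49, 2.25 and 2.71 CPM in malat1-rich libraries, against 41.9, 3.69, 26.2 and 20.1 CPM in the others (-3.46 ± 0.56). Fubp3, a single-strand nucleic acid binding protein, was at 7.34, 6.27, 8.48, 12.5 and 9.2 CPM in malat1-rich libraries, against 116.8, 26.7, 60.4 and 110.0 CPM in the others (-3.25 ± 0.35). Mat2aa, which makes the methyl donor S-adenosylmethionine, was at 18.5, 19.3, 17.0, 32.6 and 32.6 CPM in malat1-rich libraries, against 234.4, 76.2, 247.4 and 226.0 CPM in the others (-3.17 ± 0.30). The groups did not overlap for these genes, and in each of them replicate 2 of the 50 pg RfxCas13d control was the lowest of the other libraries.

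Adkb, an adenosine kinase, was at 3.86, 5.47, 3.42, 11.6 and 12.8 CPM in malat1-rich libraries, against 53.2, 22.0, 44.1 and 55.3 CPM in the others (-2.89 ± 0.31), but differed by -0.56 by limma on log2(TPM + 1). MYH9, a heavy chain of nonmuscle myosin, was at 3.09, 4.5, 3.87, 7.87 and 10.3 CPM in malat1-rich libraries, against 47.5, 7.77, 38.7 and 38.0 CPM in the others (-2.72 ± 0.45). For MYH9 the library at 7.77 CPM lay within the range of the malat1-rich libraries as a whole, and above that of its own group. The other falls chosen by the rule were pgbd4 (-3.04 ± 0.54, or -2.44 without replicate 2 of the 10 pg RfxCas13d control), the protease capn5a (-2.99 ± 0.35), the choline transporter-like SLC44A2 (-2.93 ± 0.37), the mitochondrial serine hydroxymethyltransferase shmt2 (-2.78 ± 0.42) and the integrin subunit ITGB1 (-2.74 ± 0.47). The unnamed identifier ENSDARG00000074645, seen first for its value, fell further, at 2.57, 1.29, 0.595, 2.89 and 1.44 CPM in malat1-rich libraries, against 60.6, 5.27, 33.7 and 33.8 CPM in the others (-4.27 ± 0.63).

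Of the 737 lower genes, 437 (59.3%) were lower in every malat1-rich library than in any of the 28 libraries of other groups. Over all 13796 genes this held for 6.64%, but the lower genes were chosen for low values in these same malat1-rich libraries, so nothing is read from the difference. Of the 265 higher genes, 49 (18.5%) were higher in every malat1-rich library than in any of the 28, against 1.17% of all genes, with the same limit. The median of the other 4 libraries lay inside the range of the 28 for 731 of the lower and 253 of the higher genes. Replicate 2 of the 50 pg RfxCas13d control, which had the most malat1 of the other libraries, lay between replicates 1 and 3 of its group for 686 of the lower genes (93.1%) and 157 of the higher genes (59.2%), where its side of replicate 1 was fixed by the choice of the genes. For the lower genes it was a median of 1.04 log2 units below replicate 3, with replicate 1 a further 1.19 below it. No share over all genes was computed for the counts inside the range of the 28 or between replicates 1 and 3. Nothing is therefore read from those counts.

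Among other gene groups, cytosolic ribosomal proteins stood out by how many of them shared a direction. Of 82 fitted, 81 lay above 0, with a median of 0.63 and medians of 0.84, 0.79 and 0.85 in the 3 groups, and 4 were counted higher, beside 1.92% of all genes. Over all genes 7000 of 13796 lay above 0. Rps25, of the small subunit, was at 965.5, 1016, 1383, 967.8 and 1213 CPM in malat1-rich libraries, against 394.2, 933, 365.1 and 488.8 CPM in the others (1.04 ± 0.27), with every malat1-rich library above every other library. Together these mRNAs took 5.36% and 5.61% of gene reads in the malat1-rich 10 pg RfxCas13d controls against 3.45% in replicate 2, 7.72% against 6.62% and 3.94% at 50 pg, and 6.03% and 7.05% against 4.01% in the DjCas13d knockdown. The groups overlapped over RfxCas13d as a whole but not within either dose. Translation factors, with 15 of 27 above 0 and a median of 0.06, and ribosome biogenesis factors, with 23 of 54 above 0 and a median of -0.01, did not share it. Of these 54 biogenesis factors 1 was counted higher and 1 lower, beside 1.92% and 5.34% of all genes. Among ribosome biogenesis factors, nop56 of the box C/D snoRNP was counted higher, at 2508, 2369, 3109, 2482 and 2875 CPM against 1027, 1785, 1262 and 1086 CPM in the other libraries (1.07 ± 0.19), and NOB1, the endonuclease that finishes the small-subunit rRNA, was counted lower, at 16, 15.3, 12.5, 19.8 and 19.5 CPM against 64.2, 32.3, 50.7 and 58.6 CPM in the other libraries (-1.69 ± 0.21).

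Of 4 noncoding RNAs fitted, 3 were higher without overlap, beside 7.55% of all genes. Malat1 was among them and chose the split, so its place and rank were fixed, and nothing is read from this count. Gas5, a spliced host of snoRNAs, differed by 0.66 ± 0.16 and oip5-as1 by 0.26 ± 0.12, with no overlap in any group and both short of 2-fold. Rn7sk, the RNA that holds the elongation factor P-TEFb, had between 1.03 and 4.02 CPM in malat1-rich libraries, against 0 to 2.11 CPM in the others, which is too few reads to rank it.

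Of 56 spliceosome and SR protein genes, 16 lay above 0, with a median of -0.17, and 16 were lower without overlap and 3 higher, beside 9.89% and 7.55% of all genes. Snrnp40, a U5 snRNP protein, was at 55.6, 52.7, 68.9, 61.1 and 61.7 CPM in malat1-rich libraries, against 160.8, 97.4, 182.0 and 180.1 CPM in the others (-1.39 ± 0.18). Sf3b4, of the U2 snRNP, differed by -0.92 ± 0.16. Clk2a, a kinase of SR proteins, went the other way, at 66.4, 66.7, 74.7, 77.9 and 80.1 CPM against 29.3, 35.9, 42.1 and 29.6 CPM in the other libraries (1.09 ± 0.16). The splicing factor srsf3a was also higher (1.07 ± 0.29) but overlapped and was not counted, and another entry of that name had 0 reads on both sides. Genes of nuclear speckles and of RNA-binding proteins linked to MALAT1 in mammals had a median of -0.12 over 15 genes. None was counted, beside 1.92% of all genes counted higher and 5.34% lower.

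Of 45 cell cycle genes, 9 lay above 0, with a median of -0.22. Without overlap, 13 were lower and 2 higher, beside 9.89% and 7.55% of all genes. Among these the cyclin ccnd1 was higher (0.97 ± 0.15) and the spindle checkpoint genes bub1 (-0.95 ± 0.16) and mad2l1 (-0.72 ± 0.12) lower, without overlap and short of 2-fold. Among mRNA decay genes, zfp36l1a, which binds AU-rich elements, was at 3.99, 3.06, 1.34, 6.43 and 3.43 CPM in malat1-rich libraries, against 23.3, 8.42, 22.6 and 25 CPM in the others (-2.56 ± 0.38). The deadenylase subunit cnot11 was also counted lower (-1.10 ± 0.23) and TNRC6A, a partner of Argonaute, higher (1.03 ± 0.15), while the list median was 0.04. Of 44 mRNA decay genes fitted, 2 were counted lower and 1 higher, beside 5.34% and 1.92% of all genes. Better expressed genes counted lower in other lists included the ubiquitin-like isg15 (-1.88 ± 0.33), the amino acid transporter slc7a5 (-2.58 ± 0.56), the histone gene hist2h3c (-1.34 ± 0.23), the BMP regulator bmper (-1.17 ± 0.28) and the germ line helicase tdrd9 (-1.03 ± 0.20). Of 34 integrated stress and unfolded protein genes 1 was counted lower, and 1 of 11 replication-dependent histones. The same held for 1 of 29 ventral BMP genes and 1 of 20 germ line genes, beside 5.34% of all genes. Of the 17 innate immune genes fitted, 2 were counted higher and 2, with isg15 among them, lower, beside 1.92% and 5.34% of all genes. Single apoptosis and enveloping layer genes (1 of 22 and 1 of 29 fitted) were counted lower at low levels, such as the keratin krt1-c5 (-3.19 ± 0.82), picked after its value was seen.

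The list medians of maternal and zygotic genes lay close to that of all genes. They were 0.09 over 47 maternal and 0.08 over 52 zygotic genes. In these lists 0 genes were counted higher, beside 1.92% of all genes, and 0 maternal and 1 zygotic were counted lower, beside 5.34%. The summed share of the maternal list was nevertheless lower in the malat1-rich libraries of each group. It was 0.729% and 0.727% of gene reads in the malat1-rich DjCas13d knockdown against 0.973% in replicate 3, 0.850% and 0.877% against 0.896% in the 10 pg RfxCas13d control, and 0.793% against 0.846% and 0.818% at 50 pg. Mitochondrial and ribosomal protein mRNAs took more of the same gene reads in the malat1-rich libraries of each group. The part of that in the lower maternal share was not tested. The 5 ovary genes, which mark RNA of the egg, went the other way from the maternal list, with sums of 110.9 to 135.4 CPM in malat1-rich and 98.56 to 110.7 CPM in other libraries. Among these, zp2.1 of the egg coat differed by 0.97 ± 0.22 and the maternal factor zar1 by 0.66 ± 0.18. The part of these RNAs in other differences was not tested. The maternal median was 0.48 in the 10 pg RfxCas13d control, -0.03 at 50 pg and -0.43 in the DjCas13d knockdown. Mesendoderm genes had medians of 0.27, 0.21 and 0.31 in the 10 pg RfxCas13d control, the 50 pg RfxCas13d control and the DjCas13d knockdown. In the same order, ventral BMP genes had 0.17, 0.14 and 0.31. Medians of 2 other patterning lists lay further apart, at 0.11, 0.32 and 0.64 for dorsal organizer genes and 0.11, 0.49 and 1.11 for neural and epiblast genes. Single genes chosen for their large differences varied more between the groups, which was not tested. Her9, a neural repressor of the Hairy family, was at 31.5 and 42.6 CPM in the malat1-rich DjCas13d knockdown against 1.08 CPM in replicate 3, and at 7.21 and 5.95 CPM in the malat1-rich 10 pg RfxCas13d controls against 4.69 CPM in replicate 2. In the 50 pg RfxCas13d control it was at 43.8 CPM in replicate 1, against 26.6 and 4.28 CPM in replicates 2 and 3. Dlx3b, an ectodermal homeobox gene, followed the same order, with group differences of 0.52, 2.5 and 4.21, and sebox, a homeobox gene of the yolk syncytial layer list, the reverse, with -0.42, -1.88 and -4.67 in the 10 pg RfxCas13d control, the 50 pg RfxCas13d control and the DjCas13d knockdown. Sebox differed by -1.85 ± 0.89 in the fit of all 9 libraries. Other genes of that list had the opposite sign: apoa1b (1.54 ± 0.60), apoa1a (1.38 ± 0.49) and tfa (1.24 ± 0.45) were higher within each group and overlapped over RfxCas13d as a whole, in a list with a median of 0.41 over 19 genes.

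GFP differed in opposite directions. It was at 676 and 811 TPM in the malat1-rich 10 pg RfxCas13d controls, against 4464 TPM in replicate 2, and at 4226 TPM in the malat1-rich 50 pg control, against 10690 and 21930 TPM in the others. In the DjCas13d knockdown it was at 31.2 and 11.3 TPM in the malat1-rich libraries, against 4.71 TPM in replicate 3. Within each group the malat1-rich and other libraries did not overlap, which carries little weight with 1 library on 1 side of each group. The labels do not say how GFP was delivered.

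The 28 libraries of other groups, which did not enter the split, allow a test. For each gene, edgeR's quasi-likelihood test asked whether its level followed log2 malat1 within groups, so that a slope of 1 means a doubling for each doubling of malat1. Of 17639 genes tested, 20 (0.113%) had a positive and 74 (0.42%) a negative slope at an adjusted p under 0.05 (Benjamini-Hochberg), and at an unadjusted p under 0.05 there were 946 (5.36%) and 1106 (6.27%). The adjusted counts rest on few libraries. Leaving out 1 library at a time gave 0 to 71 positive and 0 to 166 negative genes: there were 0 and 0 without replicate 3 of the 10 pg DjCas13d control, 1 and 2 without its replicate 1, 1 and 2 without replicate 1 of the 50 pg DjCas13d knockdown, and 71 and 166 without replicate 1 of the 50 pg RfxCas13d knockdown. Either count moved by over 1.5 times without 23 of the 28 libraries. With the replicate number as a block 28 positive and 116 negative genes passed. In the 14 Cas7-11 libraries alone, where malat1 spanned 538 to 1156 CPM, no gene passed, and in the 14 RfxCas13d and DjCas13d libraries 17 positive and 127 negative genes did.

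The genes of the split tended to slope the same way in these 28 libraries. Among all genes tested, 9332 of 17639 had a positive slope. Of the 737 lower genes, 651 (88.3%) had a negative slope and 289 (39.2%) a negative slope at an unadjusted p under 0.05, against 6.27% of all genes tested, with a median slope of -0.29 beside 0.02 for all genes. Leaving out 1 library gave 168 to 310 such genes, with the fewest without replicate 3 of the 10 pg DjCas13d control. Of the 260 higher genes that could be tested, 221 (85%) had a positive slope and 70 (26.9%) a positive one at an unadjusted p under 0.05, against 5.36% of all genes, with a median slope of 0.30. At an unadjusted p under 0.05, 9 of the lower and 0 of the higher genes sloped the opposite way. In the Cas7-11 libraries alone 43 of 734 lower genes (5.86%) and 27 of 258 higher genes (10.5%) passed, beside 2.28% and 3.13% of all genes, and whether this differs from the other effectors was not tested. All 74 genes with a negative slope past the adjusted threshold lay below 0 in the split, 53 of them counted lower, and 17 of the 20 with a positive slope lay above 0, 7 of them counted higher.

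**Figure D4:**
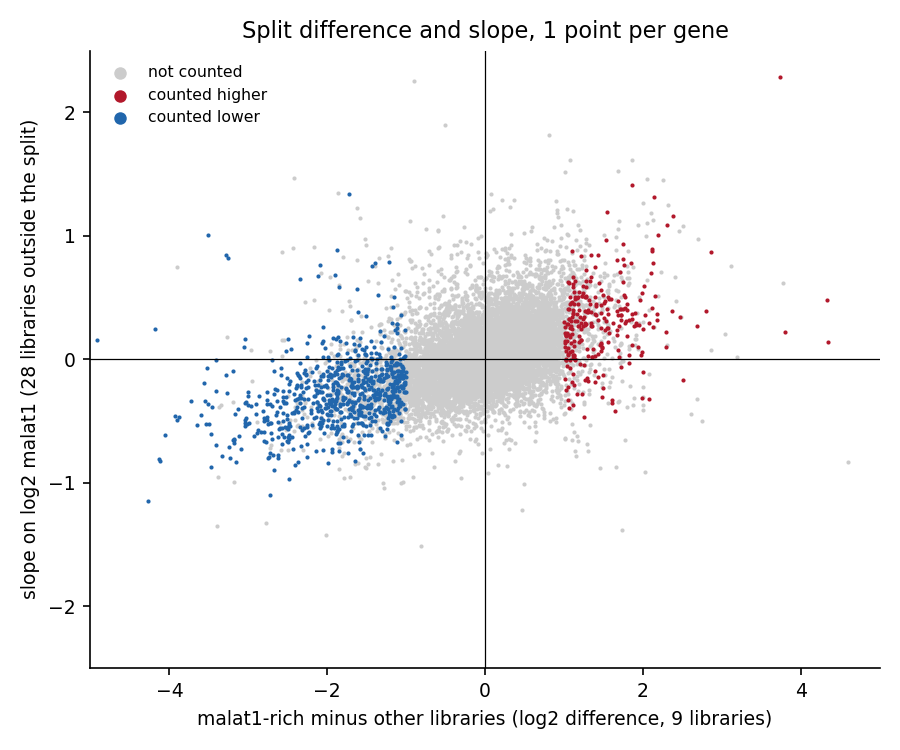
Each point is 1 of 13773 genes, with the log2 difference of malat1-rich minus other libraries (9 libraries) on the horizontal axis and its slope on log2 malat1 in the 28 other libraries on the vertical axis; genes counted higher are red and lower blue. The blue points lie mostly below a slope of 0, with a median of -0.29, and the red points mostly above it, with a median of 0.30.

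Of the better expressed genes past the adjusted threshold that have a gene name, MYH9 had the steepest negative slope, at -1.10 ± 0.17 (edgeR quasi-likelihood test, adjusted p = 0.00594), and it passed in 27 of 28 fits that left out 1 library, with a slope of -1.55 in RfxCas13d and DjCas13d libraries and -0.49 in Cas7-11 libraries. It ranged from 14.5 to 189.6 CPM in the 28 libraries, with a median of 50.2. Slc25a36a, a mitochondrial nucleotide carrier, had the steepest positive slope among them at 0.84 ± 0.13 (edgeR, adjusted p = 0.00594), also passed in 27 of 28 such fits, and was counted higher in the split (1.22 ± 0.32). Of the genes with the largest falls, fubp3 (-0.71 ± 0.13, edgeR adjusted p = 0.0193), mat2aa (-0.65 ± 0.12, edgeR adjusted p = 0.0218), adkb (-0.60 ± 0.12, edgeR adjusted p = 0.0346) and shmt2 (-0.67 ± 0.15, edgeR adjusted p = 0.0426) passed as well. The other 5 of these 10 genes, pgap3, pgbd4, capn5a, SLC44A2 and ITGB1, had negative slopes that did not pass, with adjusted p-values of 0.0934 to 0.291 by edgeR.

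Genes without such a name among the 5 steepest slopes each way were the identifiers ENSDARG00000074645 (-1.14 ± 0.24, edgeR adjusted p = 0.0381), which is steeper than MYH9 and was among the falls above, and ENSDARG00000101256 (-0.86 ± 0.19, edgeR adjusted p = 0.0426), and the clone-named si:ch211-163m17.5 (0.63 ± 0.14, edgeR adjusted p = 0.0410). The other negative slopes of named genes were those of dock1 (-0.89), a Rac activator, VEZF1 (-0.87), a zinc finger factor, tmbim1a (-0.83) and PPTC7 (-0.80), a mitochondrial phosphatase. Each of these 4 genes was counted lower in the split and passed in 13 or 14 of 28 fits that left out 1 library. Of the other positive ones, the small GTPase rnd3a (slope 0.66) and the sorting nexin snx11 (0.54) had no counterpart in the split (-0.07 ± 0.27 and -0.04 ± 0.21), and the stress protein sesn1 (slope 0.74) lay on the opposite side there (-0.80 ± 0.41). Cyp2p7, a cytochrome P450 (slope 0.58), was higher in the split (1.02 ± 0.28) with overlap. In fits that left out 1 library, sesn1 and rnd3a each passed in 14 of 28, and cyp2p7 and snx11 each in 8 of 28. The kinase clk2a, picked after its values were seen, had a slope of 0.46 ± 0.10 (edgeR, adjusted p = 0.0397), and fam133b one of 0.41 ± 0.10 (edgeR, adjusted p = 0.0482).

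All 13 mitochondrial mRNAs had a positive slope in the 28 libraries, with a median of 0.30, and mt-cyb alone passed, at 0.37 ± 0.09 (edgeR, adjusted p = 0.0447), which it did in 7 of 28 fits that left out 1 library. In the RfxCas13d and DjCas13d libraries all 13 were positive, at 0.21 to 0.69, and 2 passed. In the Cas7-11 libraries 8 of 13 were positive. Of 82 cytosolic ribosomal proteins 80 had a positive slope, with a median of 0.17, and none passed. Over all genes 9332 of 17639 had a positive slope, and 0.113% passed with one.

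Library measures were related to malat1 in the same 28 libraries, as log2 values centred on each group, with a two-sided permutation test within groups (100000 draws) adjusted over 9 measures. The share of no-feature reads followed malat1 most closely, with r = 0.904 (permutation p = 2e-05, adjusted p = 0.00018) and a Spearman rho of 0.93 (permutation p = 2e-05, adjusted p = 0.00018). The share of multimapping reads had r = 0.719 (permutation p = 5e-04, adjusted p = 0.00225) and rho = 0.721 (permutation p = 0.00069, adjusted p = 0.0031), and that of mitochondrial mRNAs r = 0.711 (permutation p = 0.00355, adjusted p = 0.0106) and rho = 0.623 (permutation p = 0.00941, adjusted p = 0.0282). Without the 2 libraries farthest from the median, replicate 3 of the 10 pg DjCas13d control and replicate 2 of the 10 pg Cas7-11 control, r was 0.866, 0.622 and 0.681 for these 3 measures, each past the threshold. For no-feature reads r was 0.926 in the RfxCas13d and DjCas13d libraries and 0.896 in the Cas7-11 libraries. For mitochondrial mRNAs it was 0.963 (permutation, adjusted p = 0.0129) in the RfxCas13d and DjCas13d libraries and 0.194 (permutation, adjusted p = 0.643) in the Cas7-11 libraries, and the difference between these was not tested. For multimapping reads it was 0.679 (permutation, adjusted p = 0.0559) and 0.781 (permutation, adjusted p = 0.0254). The shares of ribosomal protein mRNAs (r = 0.409), histone (0.035), maternal (-0.314) and zygotic mRNAs (0.224), unmapped reads (0.167) and the number of gene reads (0.252) did not pass, with adjusted p-values of 0.24 to 0.881 by the permutation test. The part of no-feature reads in the slopes of single genes was not tested.

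The level of the counted genes was also followed across libraries. Each gene was centred on its mean log2 CPM over the 37 libraries, and the median was taken over the 737 lower genes in each library. It was -2.14 to -1.41 in the malat1-rich libraries, against -0.846 in replicate 2 of the 50 pg RfxCas13d control and 0.125 to 0.485 in the other 3, a separation that the choice of the genes fixed. Of the 28 libraries outside the split, the 4 with a median below 0 were all 3 replicates of the 50 pg DjCas13d control and replicate 3 of the 10 pg DjCas13d control, whose malat1 was between 1366 and 2272 CPM. Replicate 1 of the 50 pg DjCas13d knockdown had nearly as much malat1 as the lowest of these, at 1365 CPM, and a median of 0.12. The medians are not centred on groups, so group and malat1 cannot be told apart here. The same median over the higher genes without malat1 was 0.748 to 1.07 in the malat1-rich libraries, -0.384 to -0.217 in the other 4, and -0.342 to 0.261 in the 28, and replicate 1 of the 50 pg DjCas13d control was the highest of the 28.

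**Figure D5:**
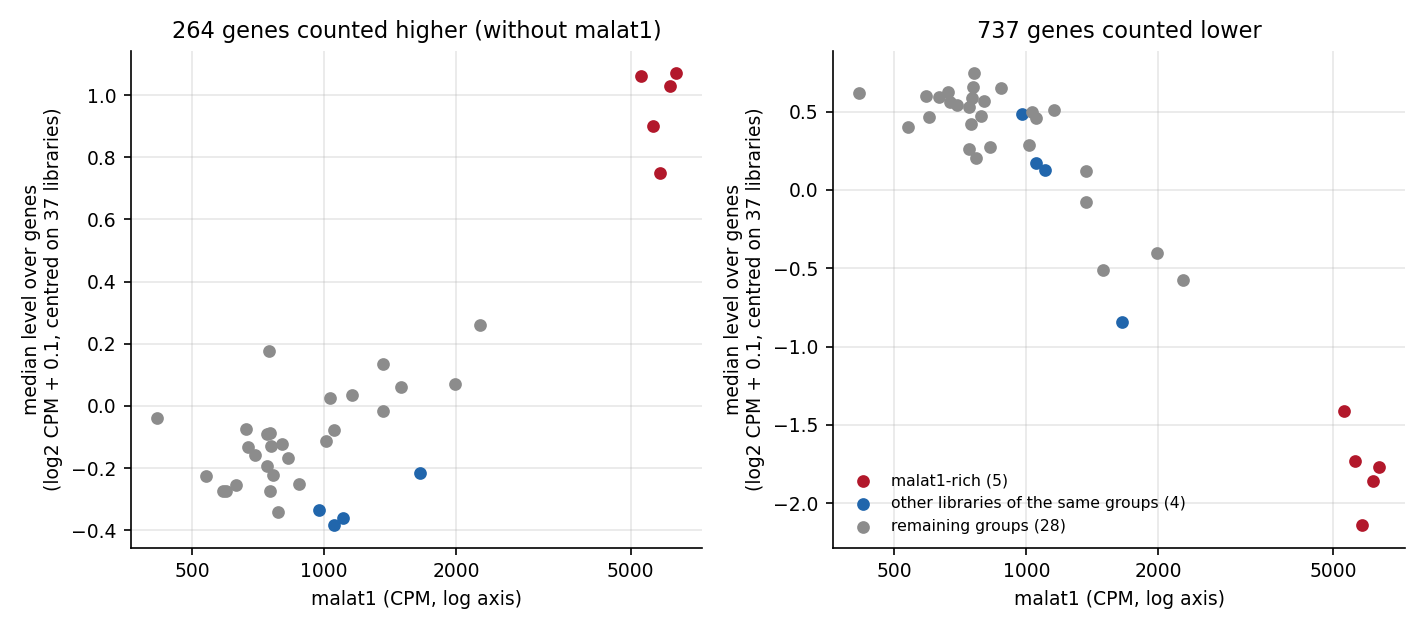
Each point is 1 of 37 libraries, with malat1 in CPM (log axis) against the median level, in log2 units centred on all libraries, of the genes counted higher (left, without malat1) and lower (right). The malat1-rich libraries lie at 0.748 to 1.07 on the left and at -2.14 to -1.41 on the right, and libraries with 1366 to 2272 CPM of malat1 lie between them and the rest on the right. Replicate 1 of the 50 pg DjCas13d knockdown, with 1365 CPM, lies among the rest at 0.12.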

How the data were processed

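RNA of whole embryos was sequenced in 37 libraries. Extraction used TRIzol and the library kit was directional, per the labels' protocols. The authors deposited raw counts of reads, for 32520 genes and 4 summary entries, and TPM values per gene, which sum to 999998.8 to 1000001.1 in each library. The genome build was danRer11, per the submitters' processing notes, while no aligner, counter or strand setting is given in the sources used here. The summary entries held 17.3% to 26.4% of all reads. Values of overlapping or antisense genes and of near-identical copies, which multimapping reads leave out, are therefore uncertain. Of the genes, 20859 had a symbol in the deposited tables, 8382 were matched by identifier to a table of gene names, and 3279 had none.

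The libraries, members and gene lists were chosen with earlier results of these data known. Groups were taken from the sample titles. CPM are counts per 1000000 gene-assigned reads, and the summary entries and GFP were left out of these sums. Differences between the 5 malat1-rich and 4 other libraries came from edgeR 4.0.16 (R 4.3.3) on counts with effector as block, filterByExpr and TMM factors (0.898 to 1.11), with a biological coefficient of variation of 0.296. A gene was counted at a log2 difference of at least 1 with no overlap between the sides within either effector. The SE of a difference or slope is its absolute value divided by the square root of its quasi-likelihood F, since edgeR gives no SE itself. Values of single genes in the 28 other libraries are unscaled CPM.

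In the 28 libraries the count of each gene was fitted with a term per group and log2 malat1 CPM, by the edgeR quasi-likelihood test (robust) over 17639 genes with Benjamini-Hochberg adjustment at 0.05. Both fits were run on simulated data with known changes, placed in genes with a mean log2 CPM above 3 and with the same dispersion for all genes. This checks the code, and does not cover genes at lower levels or variation that genes share across libraries. Named genes are the 10 largest rises and 10 largest falls counted with no overlap in any of the 3 groups, a mean log2 CPM of at least 3 and a gene name, then malat1, the 13 mitochondrial mRNAs, up to 4 members of each list by size of difference, and the 5 steepest slopes each way past the threshold, which were taken among genes with a gene name although the rule for slopes did not ask for one. The text gives values for some of these genes, and the others enter the counts of their lists. GFP was compared in TPM. Alternatives were limma 3.58.1 on log2(TPM + 1), DESeq2 1.42.0, library size alone, no filter, other blocks and leaving out each library. Replicate numbers were checked for pairing by the correlation, across genes, of deviations from group means. Between control and knockdown of the same effector and dose, same-numbered libraries correlated at 0.305 to 0.549 in all 4 pairs of the 10 pg Cas7-11 groups. Differently numbered libraries of these groups correlated at -0.52 to 0.485. Replicate 3 of the control correlated at 0.485 with replicate 4 of the knockdown and at 0.305 with replicate 3. These values do not settle whether the numbers mark pairs. Other such groups had at least 1 pair under 0.1. Among the groups of the split, all 3 pairs of the DjCas13d knockdown and the 50 pg RfxCas13d control lay at 0.154 to 0.568, where replicate 1 is malat1-rich in both, and pairs with the 10 pg RfxCas13d control went down to -0.341.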

Additional observations from a re-analysis of the deposited data

Results flagged for a closer look

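GFP moved in opposite directions between groups, and this difference was not tested. The ratio of mean TPM in malat1-rich over other libraries was 4.51 in the 10 pg DjCas13d knockdown, 0.166 in the 10 pg RfxCas13d control and 0.259 in the 50 pg RfxCas13d control, with no overlap in any of them. The first ratio is between low levels of a knockdown group, 31.2 and 11.3 TPM against 4.71 TPM. Each group has 1 library on 1 side, so the lack of overlap carries little weight.

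Single libraries stood apart in the 10 pg Cas7-11 groups, the only groups with 4 libraries, by gaps that were large beside the range of the group but not always in size. Replicate 2 of the control had malat1 at 1156 CPM, next to 664.1 CPM in the second highest. Replicate 1 of the control was lowest for mt-atp6 at 1357 CPM, next to 2006 CPM, and for mt-nd5 at 416 CPM, next to 554 CPM. Replicate 2 of the knockdown was lowest for pgbd4 at 40.8 CPM, next to 43.4 CPM. These are 4 of 86 such checks, and chance alone flags about 1 in 20.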

How the results depend on the processing

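The count of higher genes in the split fell to 82 by limma on log2(TPM + 1), and the mitochondrial share of summed TPM differed by 7.96 percentage points. Scaling by library size moved the median of all genes to -0.13 and gave 183 higher and 837 lower genes. With effector and dose as block there were 262 higher and 756 lower genes, and the mitochondrial share of gene reads differed by 4.42 points. With effector and replicate block there were 286 and 723 genes, and by DESeq2 or without the filter the counts also stayed within 1.5 times. Leaving out each of the 9 libraries gave 283 to 632 higher and 653 to 1327 lower genes and 4.26 to 5.74 points of mitochondrial share. List medians are compared relative to the median of all genes. Without the filter that of replication-dependent histones moved to 0.23. Leaving out 1 library gave -0.11 to 0.21 for histone variants, -0.018 to 0.19 for enveloping layer genes, 0.49 to 0.93 for cytosolic ribosomal proteins and 1.70 to 2.04 for mitochondrial mRNAs.

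Genes that follow malat1 in the 28 libraries were 10 positive without the filter, 116 negative with the replicate block, 127 negative in RfxCas13d and DjCas13d libraries, 0 and 0 in Cas7-11 libraries, and 108 positive and 265 negative by DESeq2, where 5472 adjusted p-values were not given. Of the genes counted in the split, 27 higher and 43 lower ones had a slope of the same sign at an unadjusted p under 0.05 in Cas7-11 libraries, and 52 to 77 and 168 to 310 did without 1 library. Positive and negative counts without 1 library ran from 0 to 71 and from 0 to 166. For the 10 pg Cas7-11 control they were 38 and 87, 22 and 87, 13 and 60, and 13 and 70 without replicates 1 to 4, and for the 50 pg control 12 and 46, 11 and 45, and 24 and 84 without replicates 1 to 3. For the 10 pg Cas7-11 knockdown they were 19 and 68, 2 and 15, 39 and 112, and 6 and 33, and for the 50 pg knockdown 4 and 25, 23 and 92, and 26 and 117. For the 10 pg DjCas13d control they were 1 and 2, 1 and 12, and 0 and 0, for its 50 pg control 2 and 12, 15 and 62, and 1 and 13, and for the 50 pg DjCas13d knockdown 1 and 2, 1 and 3, and 6 and 39. For RfxCas13d they were 3 and 19, and 1 and 9 in the 10 pg knockdown, and 71 and 166, 15 and 32, and 14 and 42 in the 50 pg knockdown.

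Slopes turned negative in Cas7-11 libraries for mt-nd2 (-0.0053), mt-co1 (-0.14), mt-co3 (-0.028), mt-nd3 (-0.090) and mt-nd6 (-0.33). Among library measures, r for multimapping reads was 0.679 and for unmapped reads 0.71 in RfxCas13d and DjCas13d libraries, the first no longer and the second now past the threshold, and in Cas7-11 libraries r was 0.194 for mitochondrial and -0.788 for zygotic mRNAs, with the same changes. The cause was not tested. The split rests on 9 libraries, and with 1 or 2 libraries on a side in each group its differences carry no test.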
